A study of Capra hircus with 6 samples.

Results

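The genes examined here were 9 interferon regulators and RNA sensors, measured in dermal papilla cells of the secondary hair follicles of Albas cashmere goats. They comprise the transcription factor genes IRF1, IRF2, IRF7, IRF9, and STAT2, the RNA sensor genes IFIH1 and DDX58, the ubiquitin ligase gene TRIM25, and the ubiquitin-like modifier gene ISG15. They were taken by name from the 15944 genes of the counts table, in which each of the 9 had 1 row. The control group (3 libraries) was kept in medium alone, and the ATRA-treated group (3 libraries) received all-trans retinoic acid (ATRA), the vitamin A metabolite that binds retinoic acid receptors, at 100 µM for 24 h. Both groups were wild type primary cultures, passaged before use, from the skin of goats 3 years old, and all 6 libraries carry the same batch label. The study's methods give 3 individual animals as the source of the cells used in the drug treatment. Whether one animal gave both a control and an ATRA library is not stated in the sources used here. The comparison asks how ATRA changed the messenger RNA of this antiviral signaling branch.

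As background, a cell detects viral RNA in the cytoplasm through helicases of the RIG-I family. IFIH1 encodes MDA5, which senses long double-stranded RNA, and DDX58 encodes RIG-I, a sensor of RNA ends whose name stands for retinoic acid-inducible gene I. TRIM25 attaches ubiquitin chains to RIG-I. Both sensors signal through the adaptor MAVS to kinases that activate IRF3 and IRF7, which switch on interferon genes. Secreted type I interferon then binds its receptor, and a complex that contains STAT2 and IRF9 (ISGF3) transcribes interferon-stimulated genes, among them ISG15 and the sensors themselves. IRF1 activates many of the same genes, and IRF2 is known mainly as its competitor at shared sites.

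Total counts lay between 35532339 and 38012771 per library. Levels are given as normalized CPM, a gene's count relative to the library total after TMM scaling, and TMM factors averaged 0.847 for control and 1.18 for ATRA libraries. CPM is not divided by gene length, so it is compared between libraries and not between genes. Differences are log₂ fold changes (log₂FC) of ATRA over control with their standard error (SE), and adjusted p-values come from edgeR's quasi-likelihood test over the 12588 genes tested. Of the 15 markers of dermal papilla or mesenchymal cells, ALPL, PROM1, and CORIN had at most 1 count in any library and SOX2 at most 16. The summed level of these markers was 31767 to 34503 CPM in the control libraries and 2312 to 2349 CPM in the ATRA libraries, with 10 of the 11 tested lower. VIM made up most of the sum, with means of 19158 CPM in control and 1595 CPM in ATRA libraries, and ACTA2 fell from 6582 to 8.37 CPM. The fall was uneven, with a log₂FC of -0.44 for PDGFRB and -0.54 for LEF1, and SOX18 did not pass the test (0.47). The part of this summed level in the results below was not tested. In bulk RNA of this kind, fewer cells of a type and less RNA per cell cannot be told apart.

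ATRA changed 7 of the 9 genes at an adjusted p under 0.05. ISG15, IFIH1, IRF7, IRF9, DDX58, and TRIM25 fell, IRF1 rose, and IRF2 and STAT2 did not pass the test. Among all genes tested, 38.7% were lower and 40.9% higher by this rule, and 2560 of 12588 did not pass. A count of 7 of 9 changed is therefore near the share of all genes. With an absolute log₂FC above 1 and an unadjusted p under 0.05 as thresholds, 4 of the 9 were lower (ISG15, IFIH1, IRF7, and IRF9) and 0 were higher, where 17.3% and 13.7% of all genes were. The ATRA and control libraries did not overlap for 8 of the 9, against 80.1% of all genes. The median log₂FC of the 9 was -0.83, and that of all genes tested was 0.038.

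**Figure D1:**
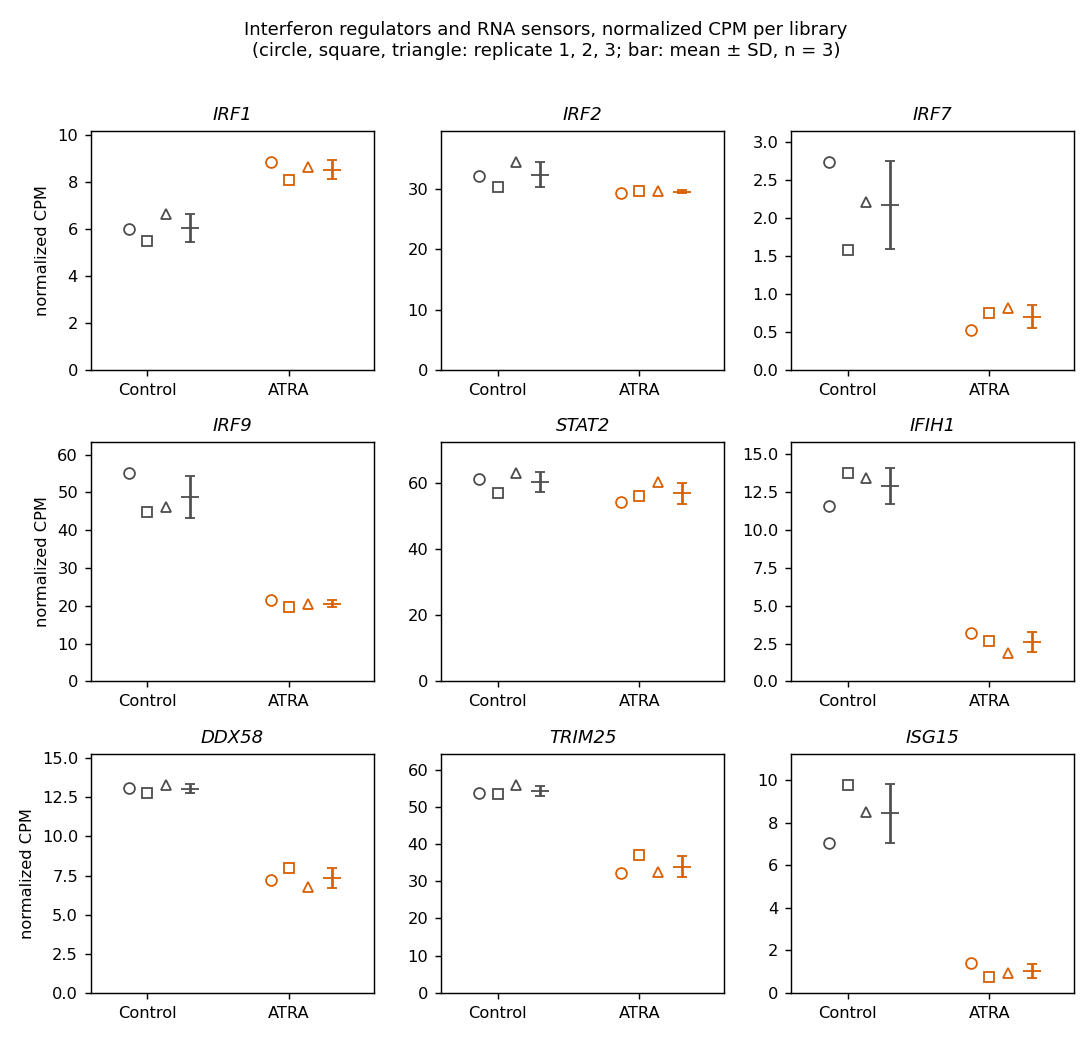
Normalized CPM (vertical axis, from 0, a separate scale for each gene) in the 3 control and 3 ATRA libraries, with a symbol for each replicate number and a bar for the mean ± SD (n = 3). ISG15 lay between 7.02 and 9.77 CPM in the control group and between 0.748 and 1.41 CPM with ATRA, whereas the STAT2 groups overlapped.

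ISG15, an interferon-stimulated gene whose product is conjugated to other proteins, had the largest fall of the 9. It had 7.02, 9.77, and 8.50 normalized CPM in control replicates 1, 2, and 3, and 1.41, 0.748, and 0.942 CPM in ATRA replicates 1, 2, and 3. Every ATRA library was below every control library. The means were 8.43 ± 1.37 and 1.03 ± 0.341 CPM (SD, n = 3 each), an 8.15-fold lower level. The log₂FC of ISG15 was -3.02 (SE 0.202, edgeR adjusted p = 1.13e-10), a size larger than that of 92.8% of the genes tested. The fall rested on 218, 316, and 273 counts in the control libraries and 61, 33, and 39 with ATRA, and the log₂FC stayed between -3.32 and -2.84 when each library was left out in turn.

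Both sensor genes fell, IFIH1 by more than DDX58. IFIH1 had 11.6, 13.7, and 13.4 CPM in the control libraries and 3.19, 2.65, and 1.88 CPM with ATRA. The groups were well apart, with means of 12.9 ± 1.17 and 2.58 ± 0.657 CPM (SD, n = 3 each), a 5.01-fold lower level. The log₂FC of IFIH1 was -2.32 (SE 0.154, edgeR adjusted p = 1.08e-10), larger in size than that of 88.8% of the genes tested. DDX58 had 407, 413, and 427 counts in the control libraries and 312, 353, and 280 with ATRA. As normalized CPM the means of DDX58 were 13.1 ± 0.267 and 7.33 ± 0.626 (SD, n = 3 each), a 1.78-fold lower level. The gene named for its induction by retinoic acid was therefore lower with ATRA in 3 of 3 libraries, with a log₂FC of -0.83 (SE 0.104, edgeR adjusted p = 7.22e-07).

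The ratio of the sensor transcripts also moved within each library, where no scaling enters. IFIH1 had 0.882, 1.08, and 1.01 counts per count of DDX58 in the control libraries and 0.442, 0.331, and 0.279 in the ATRA libraries. The mean ratio was 2.82-fold lower with ATRA (two-sided exact permutation test, p = 0.1, which is the lowest that this design can give). This ratio and those of the transcription factors below were chosen after the values of the genes were seen.

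TRIM25, the ligase for RIG-I, had 53.7, 53.4, and 55.9 CPM in the control libraries and 32.1, 37.2, and 32.6 CPM with ATRA. The control libraries were close together and the ATRA libraries all lower, at means of 54.3 ± 1.37 and 33.9 ± 2.81 CPM (SD, n = 3 each). The log₂FC of TRIM25 was -0.68 (SE 0.0726, edgeR adjusted p = 9.63e-08). Against all genes tested this was a change of middling size, since 55.3% had a smaller one. With library size as the only scaling, TRIM25 and DDX58 were lower by less, at a log₂FC of -0.20 and -0.35 (edgeR adjusted p = 0.0218 and 0.00529).

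Of the ISGF3 subunits among the members, IRF9 fell and STAT2 did not pass the test. IRF9, the subunit that recognizes DNA, had 55.1, 44.9, and 46.3 CPM in the control libraries and 21.5, 19.6, and 20.6 CPM with ATRA. Control replicate 1 was the highest, and the ATRA libraries lay within a narrow range far below all controls. The log₂FC of IRF9 was -1.25 (SE 0.0842, edgeR adjusted p = 1.36e-10), a 2.37-fold lower level, and with library size only it was -0.77. STAT2, the transactivating subunit, had 61.2, 57.0, and 62.8 CPM in the control libraries and 54.3, 55.8, and 60.2 CPM with ATRA. ATRA replicate 3 was above control replicate 2, and the means of 60.4 ± 3.01 and 56.8 ± 3.08 CPM (SD, n = 3 each) differed by about the spread within a group. The log₂FC of STAT2 was -0.088 (SE 0.0667, edgeR adjusted p = 0.232) and turned to 0.39 with library size only (edgeR adjusted p = 3.80e-05).

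In the reference gene table, STAT2 shares part of its span with IL23A, which had 16, 15, and 24 counts in the control libraries and 184, 200, and 206 with ATRA. How the authors' counting treated reads there is not given in the sources used here, and the part of IL23A in the STAT2 value was not tested. STAT2 itself had 1844 to 2018 counts in the control libraries and 2347 to 2493 with ATRA. IRF1 overlaps a long noncoding RNA gene that was not analysed here, and the other 7 members overlap no gene in that table.

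The proportion of STAT2 to IRF9 transcripts also moved within libraries. STAT2 had 1.11, 1.27, and 1.36 counts per count of IRF9 in the control libraries and 2.53, 2.85, and 2.93 in the ATRA libraries, a 2.22-fold higher mean (two-sided exact permutation test, p = 0.1). No library of one group reached the range of the other.

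IRF1 was the only member that rose with TMM scaling, whereas with library size only IRF2 and STAT2 were also higher. IRF1 had 5.99, 5.50, and 6.66 CPM in the control libraries and 8.86, 8.07, and 8.65 CPM with ATRA. The lowest ATRA library exceeded the highest control, and the level was 1.41-fold higher. The log₂FC of IRF1 was 0.49 (SE 0.118, edgeR adjusted p = 0.000931), and 43.6% of the genes tested had a smaller change. It lay between 0.42 and 0.56 when each library was left out in turn and was 0.97 with library size only.

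IRF2, the competitor of IRF1, had 32.2, 30.4, and 34.5 CPM in the control libraries and 29.3, 29.7, and 29.7 CPM with ATRA. The groups did not overlap, but the means of 32.4 ± 2.06 and 29.5 ± 0.230 CPM (SD, n = 3 each) were close. The log₂FC of IRF2 was -0.13 (SE 0.0735, edgeR adjusted p = 0.108). Without Control replicate 2 it passed the threshold at -0.18 (edgeR adjusted p = 0.0440), and with library size only it turned to 0.35 (edgeR adjusted p = 0.000356). Within libraries, IRF1 had 0.186, 0.181, and 0.193 counts per count of IRF2 in the control group and 0.303, 0.272, and 0.292 with ATRA. This ratio was 1.55-fold higher with ATRA (two-sided exact permutation test, p = 0.1).

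IRF7, the factor that amplifies type I interferon production, was the member measured on the fewest reads. The control libraries held 85, 51, and 71 counts and the ATRA libraries 23, 33, and 34. As normalized CPM these were 2.74, 1.58, and 2.21 in the control group and 0.532, 0.748, and 0.822 with ATRA. All ATRA libraries were below the lowest control, and the means of 2.18 ± 0.582 and 0.701 ± 0.150 CPM (SD, n = 3 each) gave a 3.10-fold lower level. The log₂FC of IRF7 was -1.63 (SE 0.272, edgeR adjusted p = 2.55e-05), the widest SE of the 9, and it lay between -1.82 and -1.44 when each library was left out in turn.

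**Figure D2:**
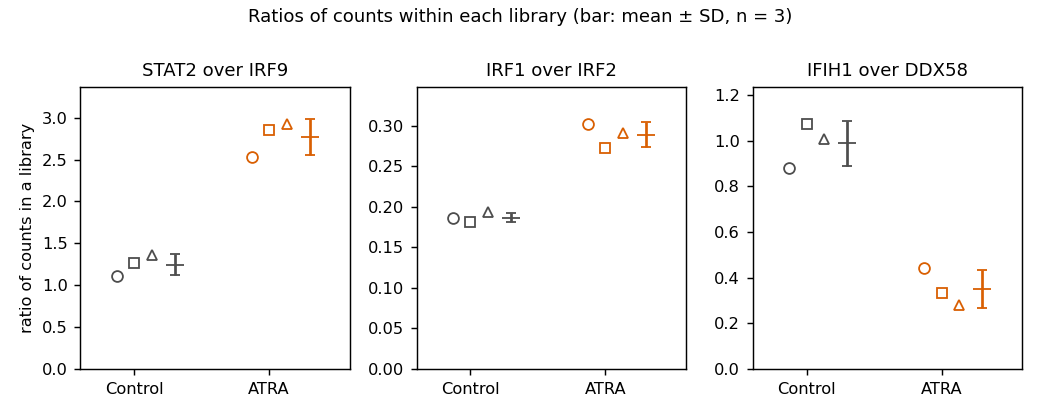
Ratios of counts within each library (vertical axis, from 0) for pairs of genes, with a symbol for each replicate number and a bar for the mean ± SD (n = 3). IRF1 over IRF2 and STAT2 over IRF9 were higher in every ATRA library, and IFIH1 over DDX58 was lower, at 0.351 ± 0.0836 against 0.989 ± 0.0981.

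The direction of the small differences depended on the scaling. Library size only moved the median log₂FC of all genes tested from 0.038 to 0.52, and the members moved with it. ISG15, IFIH1, IRF7, IRF9, DDX58, TRIM25, and IRF1 kept their direction and an adjusted p under 0.05 in all 15 alternatives tried, among them DESeq2 and limma voom. Relative to the median of all genes with TMM scaling, the log₂FC was -3.06 for ISG15, -2.36 for IFIH1, -1.67 for IRF7, -1.28 for IRF9, and 0.46 for IRF1.

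**Figure D3:**
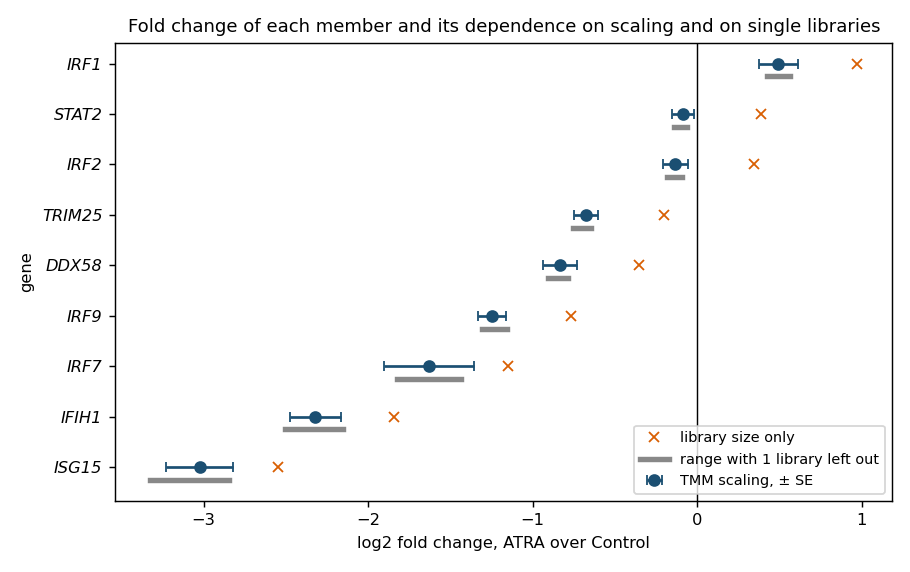
The log₂FC of each member (horizontal axis, ATRA over control) with TMM scaling as a point ± SE, beside its range with each library left out in turn and its value with library size only. With library size only STAT2 (0.39) and IRF2 (0.35) lie on the other side of 0.

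The annotation in the table ties the members to one another in several ways. The GO term defense response to virus is given to 7 of the 9 and to 135 genes of the table in all. IRF1, IRF7, IFIH1, and DDX58 carry positive regulation of interferon-beta production, a term of 20 genes, and of these 4 only IRF1 was higher with ATRA. IRF2, IRF7, IRF9, and STAT2 carry type I interferon signaling pathway, a term of 26 genes. Of the 9, the KEGG pathway of RIG-I-like receptors is given to IRF7, IFIH1, DDX58, TRIM25, and ISG15. These members all fell, where 38.7% of all genes tested were lower, and the pathway's other genes were not counted by this annotation.

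The other genes of the pathway were counted in lists of 140 gene symbols, of which 98 were tested. By an adjusted p under 0.05, 31 were higher and 53 lower with ATRA, with a median log₂FC of -0.30, and with library size only 49 were higher and 43 lower. With that scaling, 62.9% of all genes tested were higher and 22.7% lower, which is the background for each count given with library size only. With TMM scaling these shares were 40.9% and 38.7%, the background for each list count given without another setting. Antiviral interferon-stimulated genes, the class to which ISG15 belongs, were lower for 21 of 22 tested, with a median log₂FC of -1.38, and ADAR, an RNA-editing enzyme, was higher at 0.36. With library size only, 18 of these were lower and 2 higher. Antigen presentation genes were lower for 11 of 12 tested, with a median of -1.31 (9 lower with library size only). The exception was NLRC5, the transactivator of MHC class I genes, which had 5, 0, and 3 counts in the control libraries and 190, 121, and 102 with ATRA (log₂FC 5.20, SE 0.457, edgeR adjusted p = 8.42e-09). The log₂FC of NLRC5 was larger by 0.80 without Control replicate 1, was 4.62 without Control replicate 2, and was 4.57 with a prior count of 2.

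**Figure D4:**
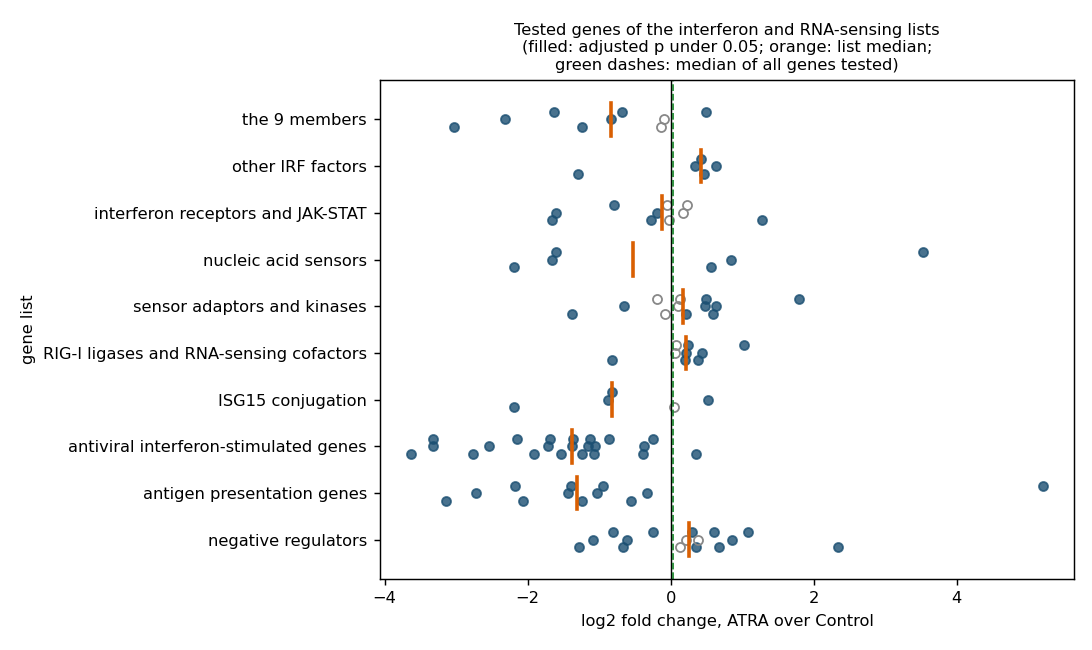
The log₂FC (horizontal axis, ATRA over control) of the tested genes of each list and of the 9 members, filled where the adjusted p was under 0.05 and open otherwise, with the list median in orange and the median of all genes tested as green dashes. The antiviral genes (median -1.38) and antigen presentation genes (median -1.31) lie mostly to the left of 0, and NLRC5 is the point at 5.20.

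The genes listed beside ISG15 and the sensors moved in both directions. Beside ISG15, its activating enzyme gene UBA7 fell with a log₂FC of -2.18 (SE 0.115), its conjugating enzyme gene UBE2L6 with -0.87 (SE 0.0890), and its ligase gene HERC5 with -0.82 (SE 0.101). Per count of UBE2L6 in the same library, ISG15 was 4.52-fold lower in the ATRA group (two-sided exact permutation test, p = 0.1). This ratio was also chosen after the values of the genes were seen. Of the 5 conjugation genes tested, these 3 were lower and 1, ARIH1, was higher (log₂FC 0.52, SE 0.0608). USP18, which encodes the enzyme that removes ISG15, was not analysed here. Beside IFIH1 and DDX58, DHX58, the remaining sensor gene of the RIG-I family, fell with a log₂FC of -2.18 (SE 0.0963). The list of other sensors had 6 genes tested, DHX58 among them, of which 3 were lower and 3 higher. Those higher were TLR3, TLR7, and TLR4, the last of which is not a nucleic acid sensor. TLR7 rested on 6, 3, and 2 counts in the control libraries and 61, 58, and 56 with ATRA.

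Downstream of the sensors, MAVS had group means of 55.3 and 52.2 CPM and a log₂FC of -0.084 (SE 0.0670, edgeR adjusted p = 0.255), which turned to 0.39 with library size only. Of the 12 adaptors and kinases tested, 6 were higher and 2 lower (10 and 1 with library size only). Ligases and cofactors of RNA sensing other than TRIM25 were higher for 6 and lower for 1 of 9 tested. IRF3, which works beside IRF7, had group means of 45.3 and 70.0 CPM and a log₂FC of 0.63 (SE 0.0763, edgeR adjusted p = 5.16e-07). Of the 5 other IRF and IRF2-binding protein genes tested, 4 were higher, IRF3 among them, and IRF5 was lower, while IRF4 and IRF8 had at most 3 counts in any library.

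Upstream of STAT2 and IRF9, the chains of the type I interferon receptor did not pass the test, with a log₂FC of -0.050 for IFNAR1 and 0.22 for IFNAR2 (edgeR adjusted p = 0.467 and 0.0757). IFNAR2 did pass with upper quartile scaling (0.30, edgeR adjusted p = 0.0199) and with library size only (0.70, edgeR adjusted p = 1.95e-05). The list of receptors and JAK-STAT genes had 1 gene higher and 5 lower of 10 tested. That split became 7 and 3 with library size only, and 2 genes were higher without ATRA replicate 2. Of 16 negative regulators tested, 7 were higher and 6 lower, near the shares of all genes tested (40.9% and 38.7%). With library size only, 11 were higher. SOCS1, an inhibitor of JAK kinases that interferon induces, did not pass the test (log₂FC 0.38, edgeR adjusted p = 0.141) except with library size only (0.85, edgeR adjusted p = 0.00239). Of the chemokines and GTPases listed by symbol only the chemokine CCL5 was tested, and it was higher at 1.26 (SE 0.278). Of the interferon-related GTPase genes under LOC numbers, collected after the table was seen, 6 were lower and 1 higher of 7 tested.

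Transcripts of the interferons themselves were near the limit of detection. The 7 ligand symbols of the list, IFNB1 among them, were not analysed here, but 12 loci under LOC numbers are described in the table as interferon genes. Together they held 7, 2, and 4 counts in the control libraries and 12, 10, and 11 with ATRA. Several share a description, and their sequences were not compared here, so the assignment of reads to single loci is uncertain. No locus reached the expression filter, and the sum was not tested.

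Among markers of leukocytes, cells with high IRF7 and IRF8, CD14 rose from 172, 212, and 277 counts to 1392, 1377, and 1264 (log₂FC 2.18, SE 0.117). CSF1R, AIF1, CD3E, and ITGAM had at most 7 counts in any library, and the other 5 of the 10 markers were not analysed here. The summed level of leukocyte markers was 5.73 to 8.78 CPM in the control libraries and 30.7 to 32.5 CPM with ATRA. The sum for keratinocyte markers was 3.11 to 4.95 CPM in control libraries and 5.24 to 5.90 CPM with ATRA. KRT10 carried that difference, with 79, 138, and 87 counts in the control libraries and 252, 231, and 240 with ATRA, whereas KRT14 had 20, 14, and 10 counts and then 3, 0, and 0, and KRT5 had 2 to 7 and then 0. The sum for endothelial markers was 0.903 to 1.24 CPM in control libraries and 6.19 to 9.16 CPM with ATRA. PECAM1 made up most of it, with 0 counts in every control library and 242, 340, and 206 with ATRA, whereas KDR had 5, 6, and 10 counts and then 2, 1, and 0, and CDH5 had at most 1 in any library. VWF did not pass the test (log₂FC 0.065), and TEK was higher at 0.87 (SE 0.297). The sum for melanocyte markers was 3.80 to 4.30 CPM in control libraries and 1.97 to 2.34 CPM with ATRA, nearly all of it PMEL. The part of these cell types in the members' values was not tested.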

How the data were processed

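The authors prepared RNA with TRIzol and oligo(dT) beads, trimmed reads with fastp and TrimGalore, and deposited raw read counts per gene, without normalization. The submitters' processing notes name HISAT2, featureCounts, and DESeq2. The genome build, annotation, strand setting, and treatment of shared reads are not given in the sources used here, so no coordinates or sequences are printed, and a planned promoter search was not run. Symbols are those of the deposited counts. Gene overlaps came from a RefSeq table of the assembly ARS1.2, which matched all 15944 names.

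After filtering by expression within condition, counts were scaled by TMM and fitted with edgeR's robust quasi-likelihood test (3 against 3 libraries, two-sided, no covariate, prior count 0.125, Benjamini-Hochberg adjustment). SEs were obtained by dividing the absolute log₂FC by the root of the F statistic. R's t.test, named in the study's methods, was not used because the values are counts. Libraries of a group differed by more than sampling noise (chi-square over its degrees of freedom, 5.01 to 18.4), and p-values measure the spread between these cultures. The tests were checked on simulated data in which 200 of 12459 genes were changed, as many up as down. With so few changed genes, that check does not cover the choice of scaling in these libraries.

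The members and lists were chosen with earlier results of these data known. Named genes were the members, IRF3, DHX58, MAVS, IFNB1, IFNAR1, IFNAR2, UBA7, UBE2L6, USP18, NLRC5, and SOCS1, and up to 4 genes per list with the largest absolute log₂FC among those with an adjusted p under 0.05, a mean CPM of at least 1, and groups apart, of which only some are printed. Some items are not reported here. ADAR, TLR3, TLR7, IRF4, IRF5, IRF8, IL23A, and single genes of the cell type marker lists were named after their values were seen. The alternatives were RLE, upper quartile, or library size only as scaling, 2 other filters, DESeq2, limma voom, a prior count of 2, a block for the replicate number, and leaving out 1 library at a time. The analysis used R 4.3.3 (edgeR 4.0.16, DESeq2 1.42.0, limma 3.58.1) and Python 3.11.15 for figures (matplotlib 3.10.9).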

Additional observations from a re-analysis of the deposited data

How the results depend on the processing

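The number of members lower with ATRA was 6 in 14 of the 15 alternatives and 7 without Control replicate 2, which added IRF2. The number higher was 1, except that it became 3 with library size only, which added IRF2 (log₂FC 0.35) and STAT2 (0.39) with a reversed sign. Of the 135 values of members over the alternatives, 132 kept their direction and their side of the threshold. With library size only, 49 genes of the pathway lists were higher in place of 31, and MAVS (0.39) and IFNAR1 (0.43) reversed. With upper quartile scaling IFNAR1 reversed to 0.027. Library size only leaves out the TMM factors, which differ between the groups, so that all log₂FC shift upward by construction. Whether the replicate numbers pair libraries is not stated, and the deviations of same-numbered libraries correlated at 0.189, -0.00655, and -0.159. Not every library correlated best with its own number, and the highest correlation, 0.246, was that of Control replicate 3 with ATRA replicate 2. The fit with the replicate block had 1 member higher and 6 lower, with a log₂FC of -3.02 for ISG15 and 0.50 for IRF1, and called 5123 genes higher and 4869 lower in place of 5151 and 4877. With 3 libraries per group, exact permutation tests of a single value cannot go below p = 0.1. IRF7, with 23 to 85 counts per library, was the member most limited by depth.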

Other observations

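Many interferon-stimulated genes of the goat are listed in the table only under LOC numbers, and they were collected by their descriptions after the table was seen. Apart from the interferon loci, 22 such genes were found and 15 tested, the 7 tested GTPase genes under LOC numbers given above among them. Of these 15, 14 passed the edgeR test as lower and 1 as higher (adjusted p under 0.05). Among all genes tested, 38.7% were lower and 40.9% higher by this rule. LOC102190983, described as an oligoadenylate synthase, an enzyme that activates RNase L on double-stranded RNA, had 10055, 10038, and 10248 counts in the control libraries and 710, 733, and 701 with ATRA (log₂FC -4.25, SE 0.0621). LOC102168687, described as an IFIT protein, had 17361, 18645, and 18427 counts in the control libraries and 5933, 6928, and 5984 with ATRA (log₂FC -1.96, SE 0.0614). LOC102170144, described as a guanylate-binding protein, had 336 to 381 counts in the control libraries and 1 to 7 with ATRA. In each case every ATRA library was below every control library. These families can hold similar copies, whose sequences were not compared here. The way the authors' counting divided reads between copies is not given in the sources used here, so the values of single loci are uncertain.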
